A study of Homo sapiens with 3 samples.

Results

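The stretch of human 28S ribosomal RNA from position 3601 to position 4100 carries part of the large-subunit face of the ribosome's subunit bridges. Further along it carries the L1 stalk. Every adenosine and cytidine numbered in this range of the deposited table was taken, which gave 247 of the 2492 A and C of the rRNA. The 500 nt hold 118 A, 129 C, 159 G and 94 U, and their GC content was 57.6%, against 69.4% over all 5070 nt. The members were chosen by position alone and not by their signal. Numbers are those of the table, starting at the 5′ end of the rRNA. The several genomic copies of the 28S gene cannot be told apart by this numbering, so each position stands for the pool of copies.

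The rRNA came from HEK293 cells, a human embryonic kidney line that the growth protocol names HEK293T/17, a derivative carrying the SV40 large T antigen. Cells were kept for 30 min with cycloheximide at 10 µM, with the probe RiboBright at 10 µM or with as much of the solvent DMSO, and each treatment is 1 library. Cycloheximide blocks translation elongation by binding the E site of the large subunit, the site from which tRNA leaves. The labels give no structure for RiboBright. Since there is 1 library for each treatment, nothing could be tested against a spread between replicates, and each comparison sets one library against another.

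The assay is dimethyl sulfate probing read by mutational profiling. Dimethyl sulfate methylates the pairing face of A and C where that face is neither base-paired nor covered, and reverse transcriptase then misreads the methylated base, so accessible A and C give high mutation signals. G and U carry no value. The signal is the authors' value per nucleotide, and the sources used here give neither its normalization nor its depth nor whether background was subtracted. No library without dimethyl sulfate was used, so bases misread for other reasons remain in the signal.

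This side of 28S rRNA holds several moving or contacting parts of the ribosome. Helix 69 is a short hairpin of domain IV that reaches across to the decoding site of the small subunit and forms bridge B2a, and its loop touches the tRNAs in the A and P sites. Domain V begins near the wall of the exit tunnel, where bacterial nucleotides such as A2058 to A2062 line the path of the nascent chain and bind macrolide antibiotics. The L1 stalk is a mobile arm that closes over the E site and escorts the deacylated tRNA out of the ribosome. The parts were located by short conserved motifs: UAACUAU of the helix 69 loop starts at position 3758, GAAGAC of the exit tunnel loop at 3904 and GAAAUAC of the L1 stalk at 4045. Their limits were carried over from bacterial numbering without gaps and are approximate. Domain IV before helix 69 then spans 3601 to 3752 with 75 members, helix 69 spans 3753 to 3771 with 9, and domain IV after helix 69 spans 3772 to 3888 with 65. The start of domain V spans 3889 to 3938 with 24 members, the L1 stalk spans 3939 to 4073 with 64, and 10 members lie between 4074 and 4100.

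The sequences below are those the results turn on, read from the position names of the deposited table, 5′ to 3′, with t standing for U. Capitals mark an A or C whose DMSO signal reached 0.24025, the 75th percentile of all A and C of 28S rRNA in DMSO and the level floor used throughout. Helix 69 with its surroundings (3750 to 3774) is shown for its loop, and the stretches around C3788 (3770 to 3818) and C3622 (3604 to 3640) for the highest signals of the region.
Helix 69: ggcgggagtaACtatgactctctta
Around C3788: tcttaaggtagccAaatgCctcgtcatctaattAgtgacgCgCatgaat
Around C3622: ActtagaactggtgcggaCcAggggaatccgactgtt
The stretches around A3663 (3643 to 3683) and from A3702 to C3739 (3694 to 3747) hold positions that differed between RiboBright and the other libraries. The stretch around A3861 (3843 to 3879) holds a strongly reactive A in a run of weak ones.
Around A3663: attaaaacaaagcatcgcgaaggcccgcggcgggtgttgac
From A3702 to C3739: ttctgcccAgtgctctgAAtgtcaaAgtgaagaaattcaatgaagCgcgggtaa
Around A3861: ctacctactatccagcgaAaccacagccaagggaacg
The exit tunnel loop (3889 to 3916) and the reactive arm of the L1 stalk (4000 to 4057) are shown for the density of their capitals.
Exit tunnel loop: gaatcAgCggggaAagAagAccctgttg
L1 stalk arm: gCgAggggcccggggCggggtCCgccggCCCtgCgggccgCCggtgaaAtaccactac
In these letters 12 A and C of the L1 stalk arm and 5 of the short exit tunnel loop are capitals, while the stretch around A3663 has none.

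Every one of the 247 members was listed in all 3 libraries, whereas outside the region 87.9% of A and C were listed in DMSO, 89.8% in cycloheximide and 70.9% in RiboBright. Exact zeros were rare in DMSO and cycloheximide, with 1 member each, and more frequent in RiboBright, with 19 members (6 A and 13 C, 7.69%). None of these 19 reached the floor in DMSO, where their median signal was 0.033 and their highest 0.11. They fell in 2 places: 10 lay before helix 69 and 8 in the L1 stalk. The remaining one lay in domain IV after helix 69. C3998 was at 0 in both RiboBright and DMSO. Because depth is not given, a zero or a low value in RiboBright cannot be weighed by read number.

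Most of the region was weakly reactive in every library. In DMSO the median signal was 0.1155 on the A and 0.065 on the C of the region, against 0.138 and 0.079 outside it. In cycloheximide these medians were 0.1205 and 0.066, against 0.145 and 0.083 outside, and in RiboBright 0.119 and 0.077, against 0.139 and 0.0795. In DMSO 44 members (17.8%) reached the floor, against 25.9% of A and C outside. That count was 44 in cycloheximide and 51 with RiboBright, both before any scaling. A signal above 1 was seen at 11, 11 and 12 members in DMSO, cycloheximide and RiboBright. At the limits of the region the DMSO signal was below the floor on both sides. The last A before it, A3599, had 0.11 and its first member C3601 had 0.03. At the other end A4098 had 0.204, the last member C4100 had 0.051 and the next C, C4101, had 0.014.

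**Figure D1:**
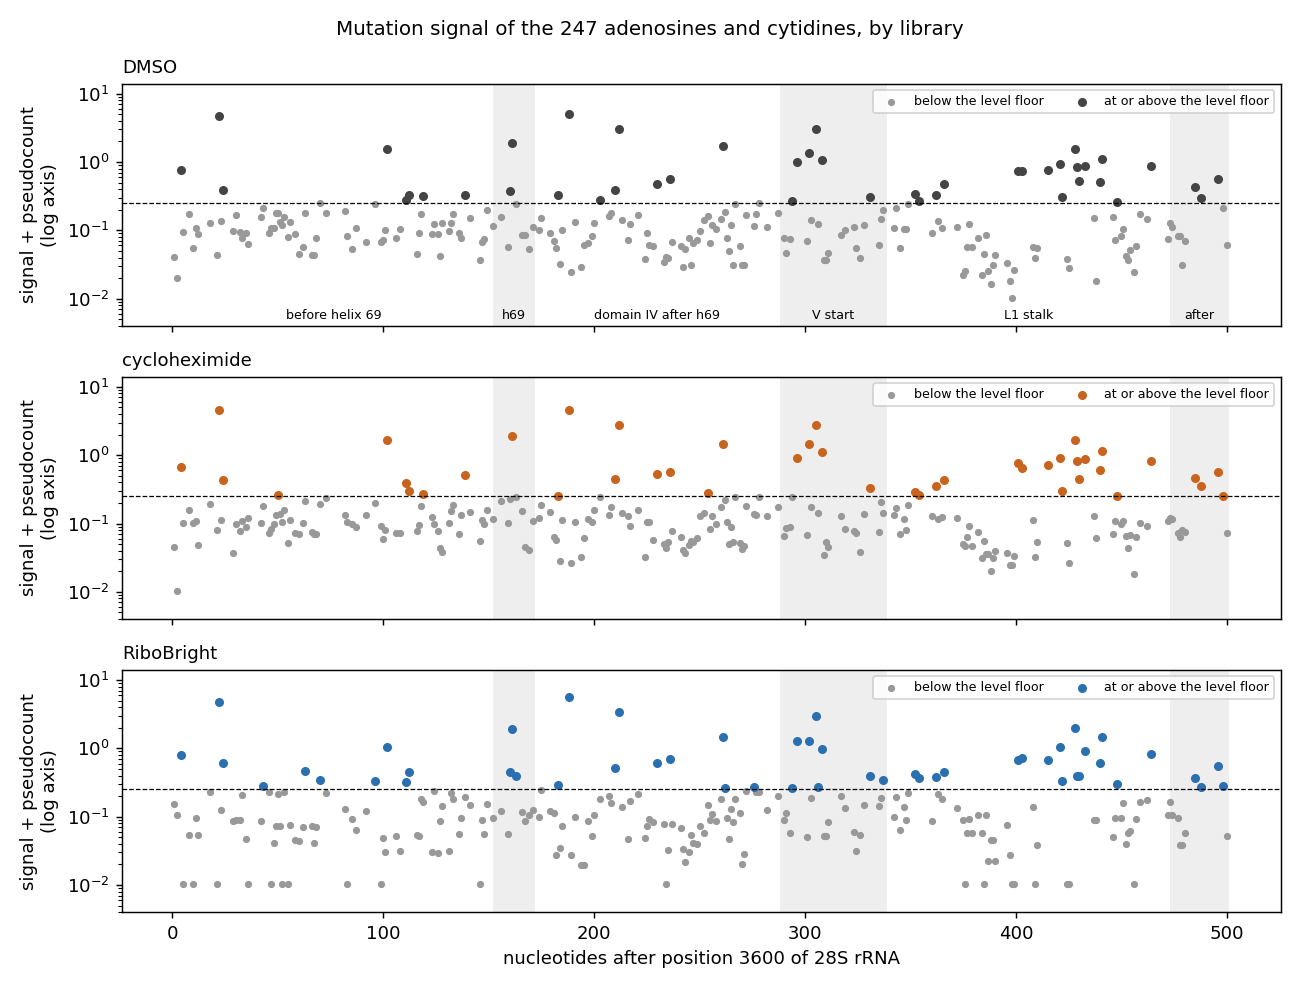
Signal plus the pseudocount of 0.0104 (log axis) of each of the 247 A and C against its distance in nucleotides from position 3600, 1 panel per library, with coloured points at or above the level floor (dashed line) and shading marking alternate stretches. The same few nucleotides stand high in all 3 panels, led by C3788 at 5.055, 4.54 and 5.605, and the row of points at the bottom of the RiboBright panel holds its 19 zeros.

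The strongest signals were few and were shared by the libraries. C3788 was the highest member in each, with 5.055 in DMSO, 4.54 in cycloheximide and 5.605 with RiboBright. C3622 came second in each, with 4.656, 4.508 and 4.706 in the same order. A3905 (3.06, 2.767 and 2.95) and C3812 (3.039, 2.794 and 3.337) took the next places, with their order turned in cycloheximide and RiboBright. A gap separated these 4 from the rest. C3761, at rank 5 in DMSO and cycloheximide and rank 6 in RiboBright, had 1.902, 1.872 and 1.892.

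The next members lay between 1 and 2 in DMSO. A3861 had 1.71, 1.437 and 1.453, and A3702 had 1.552, 1.651 and 1.031. C4028 had 1.528, 1.677 and 1.947, A3902 had 1.35, 1.443 and 1.254, and C4041 had 1.105, 1.157 and 1.479. All 10 of the highest members in DMSO were also the 10 highest in cycloheximide, and 9 of the 10 were among the 10 highest in RiboBright. The exception was A3702, which had rank 12 there. Of these 10, 4 are A and 6 are C. C3788 and C3812 lie in domain IV after helix 69, C3761 in the helix 69 loop, A3902 and A3905 in the exit tunnel loop, and C4028 and C4041 in the L1 stalk.

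Before taking ratios, the cycloheximide values were multiplied by 0.945 and the RiboBright values by 0.912, which sets the median of all values above 0 to that of DMSO. These factors moved all values by -0.08 and -0.13 on the log2 scale, and each ratio is relative to that shift. Each median covers the positions listed in its own library, which were 1838 A and C in RiboBright against 2220 in DMSO. The ratios are log2 of scaled signal plus a pseudocount of 0.0104, which understates changes at low signal. A position is called where 2 libraries differed by 2-fold or more and at least one of the scaled signals reached the floor. This is a rule of size and not a test.

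No member was called between cycloheximide and DMSO. The whole rRNA had 27 calls among the 588 A and C past the floor (4.59%), with 2.72% higher and 1.87% lower in cycloheximide, and 45 members of the region were past the floor. Their log2 ratios ran from -0.82 to 0.71, and 95.6% of them lay within 1.5-fold, against 88.4% outside the region. The median over all 247 members was -0.03, against -0.01 outside, and the middle 50% of members lay between -0.27 and 0.28. Across members the log2 signals of the 2 libraries correlated with Pearson's r of 0.952 and Spearman's rho of 0.905. Outside the region Pearson's r was 0.905. The nucleotides share their libraries and are not independent replicates, so these are descriptions. Without replicates the data cannot show that the 2 treatments were alike here.

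The largest scaled differences under cycloheximide were at the strongest members and small as ratios. The scaled difference was -0.763 at C3788 (log2 ratio -0.24), -0.444 at A3905 (-0.23), -0.397 at C3812 (-0.20), -0.394 at C3622 (-0.13) and -0.351 at A3861 (-0.33). C3896, at 0.991 in DMSO, 0.888 in cycloheximide and 1.273 with RiboBright, had a scaled difference of -0.151 under cycloheximide, and A4003 and A3604 had -0.123 and -0.116. C3739 was higher in cycloheximide, with 0.317 in DMSO and 0.497 in cycloheximide (log2 ratio 0.55). None of these reached 2-fold. The ratio farthest from 0 past the floor was that of A3760 in helix 69, described next.

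In helix 69 only A3760 and C3761, both in its loop, reached the floor in DMSO. The DMSO median of the 9 A and C of helix 69 was 0.101, the highest of the stretches. C3761, the equivalent of bacterial C1914 in the loop, was the only one of its 9 A and C with a signal above 1. Its signal was 1.902 in DMSO, 1.872 in cycloheximide and 1.892 with RiboBright, nearly the same level in all 3 libraries before scaling. Its 5′ neighbour A3760, the equivalent of bacterial A1913, which meets the decoding site and is a known site of 2′-O-methylation in human rRNA, had 0.368, 0.215 and 0.446. It was thus lowest in cycloheximide and highest in RiboBright, with a log2 ratio of -0.82 for cycloheximide over DMSO, 0.14 for RiboBright over DMSO and 0.97 for RiboBright over cycloheximide. The last falls just short of 2-fold. A3760 was called in that comparison under 3 of 13 alternative settings: without scaling, with A and C scaled separately, and at 1.5-fold. At 1.5-fold a ratio of this size is called by construction.

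A3763, the equivalent of bacterial A1916, had 0.234 in DMSO, 0.235 in cycloheximide and 0.384 with RiboBright, a log2 ratio of 0.56 for RiboBright over DMSO. On the 5′ side, A3756 had 0.145, 0.204 and 0.111, and A3759, the equivalent of A1912, had 0.047, 0.093 and 0.045. A3766, the equivalent of A1919, had 0.076, 0.144 and 0.106. These 3 weak adenosines were highest in cycloheximide, all below the floor. The stem cytidines stayed near or below 0.1 in DMSO: C3767 had 0.076, 0.035 and 0.076, C3769 had 0.043, 0.03 and 0.096, and C3771 had 0.101, 0.097 and 0.115. No member of helix 69 was called in any comparison, and none was at 0 in any library.

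**Figure D2:**
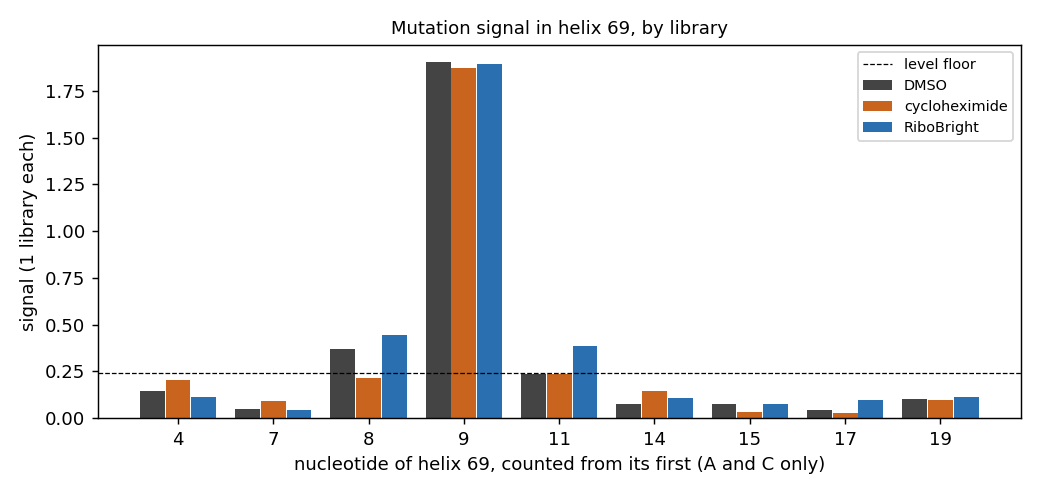
Signal (linear axis from 0, 1 library per bar) of the 9 A and C of helix 69, numbered from the helix's first nucleotide, in DMSO, cycloheximide and RiboBright, with the level floor as a dashed line. The ninth nucleotide, C3761, stands near 1.9 in all 3 libraries, and the eighth, A3760, is 0.368 in DMSO, 0.215 in cycloheximide and 0.446 with RiboBright.

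Between RiboBright and DMSO 4 members were called, 2 higher and 2 lower, of 52 past the floor (7.69%). Over the whole rRNA 5.22% of the A and C past the floor were called, 2.61% higher and 2.61% lower, which is 26 of 498. A count of 4 lies near this background and is not a result about the region. The median over all members was -0.08, the same as outside. Members past the floor ranged from -1.23 to 1.23 and 84.6% of them lay within 1.5-fold, against 81.6% outside. The robust spread of their ratios was 0.37 on the log2 scale, against 0.194 for cycloheximide over DMSO. Outside the region the spreads were 0.377 and 0.236, so RiboBright ratios were also the wider ones there. Across members Pearson's r of the log2 signals was 0.852, against 0.888 outside.

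A3663 had the highest ratio of RiboBright over DMSO past the floor. Its signal was 0.171 in DMSO, 0.202 in cycloheximide and 0.456 with RiboBright, which is a log2 ratio of 1.23 over DMSO and 1.08 over cycloheximide, so it was called in both comparisons with RiboBright. It was called under 11 of 13 alternative settings in each, though lower floors and 1.5-fold keep any called member by construction. It lies 8 nt from the nearest RiboBright zero, in a stretch where no A or C reached the floor in DMSO and where low RiboBright values recurred near 0.031 and 0.062. The part of read depth in this difference was not tested. The 2 comparisons share the RiboBright library and are not independent.

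A3906 was the other higher member, at 0.115 in DMSO, 0.131 in cycloheximide and 0.266 with RiboBright (log2 ratio 1.01 over DMSO). Both of its thresholds were barely met, and the call was lost with a doubled pseudocount. It is the equivalent of bacterial A2060 in the exit tunnel loop and lies 70 nt from the nearest RiboBright zero. A3719, a nucleotide of domain IV, was lower in RiboBright, at 0.153, than in DMSO at 0.303 and cycloheximide at 0.258 (log2 ratio -1.06 over DMSO). That call was lost without scaling.

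C4029 in the L1 stalk had the lowest ratio of RiboBright over DMSO past the floor. Its signal was 0.82 in DMSO, 0.8 in cycloheximide and 0.378 with RiboBright, a log2 ratio of -1.23 over DMSO and -1.11 over cycloheximide. DMSO and cycloheximide were close to each other and RiboBright was below both. The cytidines beside it differed from it: C4028 had 1.528 in DMSO and 1.947 in RiboBright (not called), and C4030 had 0.51 in DMSO, 0.442 in cycloheximide and 0.383 with RiboBright (-0.53 over DMSO, not called). C4029 lies 4 nt from a RiboBright zero and was called under 11 of 13 alternatives in each comparison. One of the 2 that lost it leaves out all positions within 5 nt of such a zero.

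Several strong members differed by large amounts without reaching 2-fold. A3702 had 1.552 in DMSO and 1.651 in cycloheximide but 1.031 in RiboBright, a scaled difference of -0.611 from DMSO and a log2 ratio of -0.72 over either. It lies 3 nt from a RiboBright zero. The scaled difference from DMSO was -0.384 at A3861, -0.369 at A3905, -0.363 at C3622, -0.206 at A3902 and -0.176 at C3761. Scaled differences of 0.248 at C4028 and 0.244 at C4041 went upward.

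**Figure D3:**
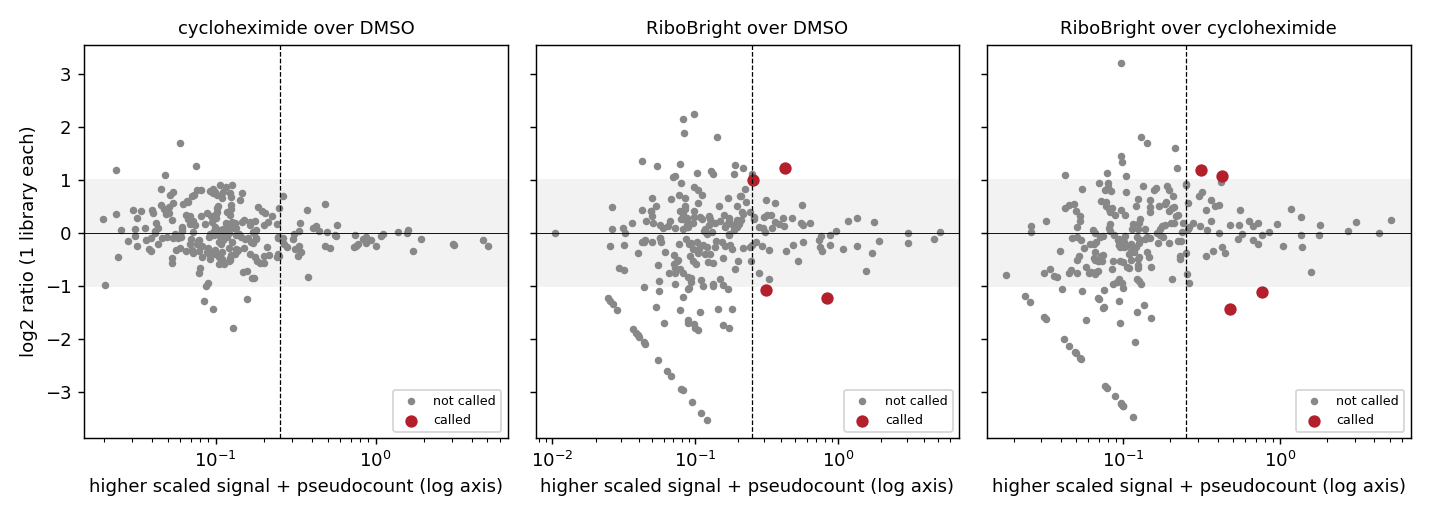
Log2 ratio of each of the 247 members (vertical axis) against the higher of its 2 scaled signals plus pseudocount (log axis), in 1 panel for each pair of libraries, with the level floor as a dashed line, the range within 2-fold shaded and called members as large points. No member is called for cycloheximide over DMSO and 4 are called in each comparison with RiboBright, and the diagonal rows at the lower left are members at 0 in RiboBright.

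Between RiboBright and cycloheximide 4 of the 51 members past the floor were called, 2 higher and 2 lower (7.84%). In the whole rRNA the share was 5.76%, with 3.91% higher and 1.85% lower, again too near for the region to stand apart. The median over members was -0.10, against -0.08 outside. A3663 and C4029 were among the 4, as given above. C3937 at the end of the stretch that opens domain V had 0.191 in DMSO, 0.133 in cycloheximide and 0.331 with RiboBright, a log2 ratio of 1.20 for RiboBright over cycloheximide. C3739 in domain IV had 0.317, 0.497 and 0.185, a log2 ratio of -1.42, and lies 7 nt from a RiboBright zero. For both, DMSO lay between the other libraries, so neither was called against DMSO.

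Among the 4 cytidines with the highest DMSO signal, the difference of RiboBright from cycloheximide varied. The scaled difference was 0.821 at C3788 (log2 ratio 0.25), 0.0311 at C3622 (0.01), 0.403 at C3812 (0.20) and -0.0439 at C3761 (-0.04). At C3896, weaker in DMSO, it was 0.322. At A3760 it was 0.204, at A3702 -0.620, at A3902 -0.220 and at A3908 -0.160. C3788 had thus the lowest signal in cycloheximide and the highest in RiboBright, with DMSO between. After scaling, its RiboBright signal of 5.113 was close to the 5.055 of DMSO (log2 ratio 0.02).

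The exit tunnel loop held some of the most reactive adenosines of the region. A3905, the equivalent of bacterial A2059, had 3.06, 2.767 and 2.95. A3908, the equivalent of A2062, which faces the nascent chain, had 1.075 in DMSO, 1.094 in cycloheximide and 0.959 with RiboBright, a log2 ratio of -0.06 for cycloheximide and -0.29 for RiboBright over DMSO. A3906 between them was weak in DMSO at 0.115. The nucleotide equivalent to A2058 is a G in this sequence, G3904, and has no value. A3903, on the 5′ side, had 0.13, 0.162 and 0.177. The cytidines that follow A3908 were nearly unreactive, with C3909 at 0.026, 0.024 and 0.042 and C3911 at 0.036, 0.035 and 0.073. In this loop only A3906 was called, in RiboBright over DMSO. Over the 24 members at the start of domain V the median log2 ratio of RiboBright over DMSO was 0.23, with 8 below 0, and none of them lay within 5 nt of a RiboBright zero.

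In the L1 stalk 17 of 64 A and C (26.6%) were at or above the floor in DMSO, with a GC content of 67.4% and a median signal of 0.0865. The share was 30% of the 10 members after the L1 stalk, 25% at the start of domain V, 22.2% in helix 69, 12.3% in domain IV after helix 69 and 10.7% in domain IV before it. Over all A and C of 28S rRNA it was 25% by the definition of the floor, so the L1 stalk as a whole was near that share. The reactive members of the L1 stalk were concentrated in one arm: in the 50 nt from 4001 to 4050, 12 of 22 members reached the floor and the median was 0.2695. That median ranked 4 of 89 such windows of 28S rRNA from the highest, while the window just before it, from 3951 to 4000, had a median of 0.046 and ranked 85. The middle 50% of windows lay between 0.072 and 0.13.

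Most reactive nucleotides of this arm are cytidines. Many of them lie next to G, as do many cytidines of the arm below the floor, while C4021, C4029 and C4030 touch no G. The part of neighbouring bases in this arm was not tested. C4021 had 0.923 in DMSO, 0.89 in cycloheximide and 1.038 with RiboBright, C4033 had 0.863, 0.873 and 0.918, and C4064 just beyond the arm had 0.866, 0.806 and 0.817. C4015 had 0.762, 0.696 and 0.658, C4001 had 0.733, 0.753 and 0.672, and A4003 had 0.72, 0.631 and 0.723. C4040, beside C4041, had 0.5, 0.592 and 0.61. Apart from C4029, no member of the L1 stalk was called in any comparison.

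A4046, the equivalent of bacterial A2169 in the L1 stalk, had 0.146 in DMSO, 0.059 in cycloheximide and 0.04 with RiboBright. It was higher in DMSO than in either treated library, with log2 ratios of -1.24 and -1.74, but all 3 values lie below the floor. With the floor lowered to the DMSO median of 0.099 it was called lower in both comparisons, which share the DMSO library. At that floor 2 of 128 members were called lower in cycloheximide (1.56%), A4046 and A3728, against 3.42% over the rRNA, and none was called higher, against 4.07%. In RiboBright 10 of 125 were called lower (8%), against 4.99%, and 9 higher (7.2%), against 4.01%. A3728 had 0.117, 0.028 and 0.131. The neighbours of A4046 differed from it: A4047 had 0.062, 0.099 and 0.085, and A4048 had 0.246, 0.244 and 0.292.

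Before helix 69, signals in RiboBright were on the whole lower than in DMSO. The median log2 ratio over the 75 members was -0.29, and 49 lay below 0. Without the members at 0 it was -0.17 over 65, and without those within 5 nt of a RiboBright zero it was -0.03 over 30, so the size of this difference changes when the zeros and their neighbours are left out. The latter set was chosen after the data were seen. Against cycloheximide the corresponding medians were -0.33, -0.21 and -0.27. Only 8 of these 75 members reached the floor in DMSO. A3604 at the start had 0.742, 0.662 and 0.781, A3711 had 0.265, 0.382 and 0.312, and A3712 beside it had 0.322, 0.288 and 0.435.

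In windows of 50 nt the lowest median for RiboBright over DMSO was -0.53, from 3701 to 3750, with 17 of 26 members below 0. It ranked 5 from the lowest of 78 windows of 28S rRNA, whose medians ran from -1.20 to 0.29. That window held 1 RiboBright zero, and its low RiboBright values recurred near 0.021 and 0.042. The highest median was 0.22, from 3901 to 3950. Against cycloheximide the window from 3701 to 3750 was again lowest, with -0.51 and 21 of 26 members below 0, followed by the one from 3651 to 3700 with -0.40. For cycloheximide over DMSO the windows ran only from -0.19, from 3601 to 3650, to 0.11, from 3951 to 4000. No window has a replicate check.

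**Figure D4:**
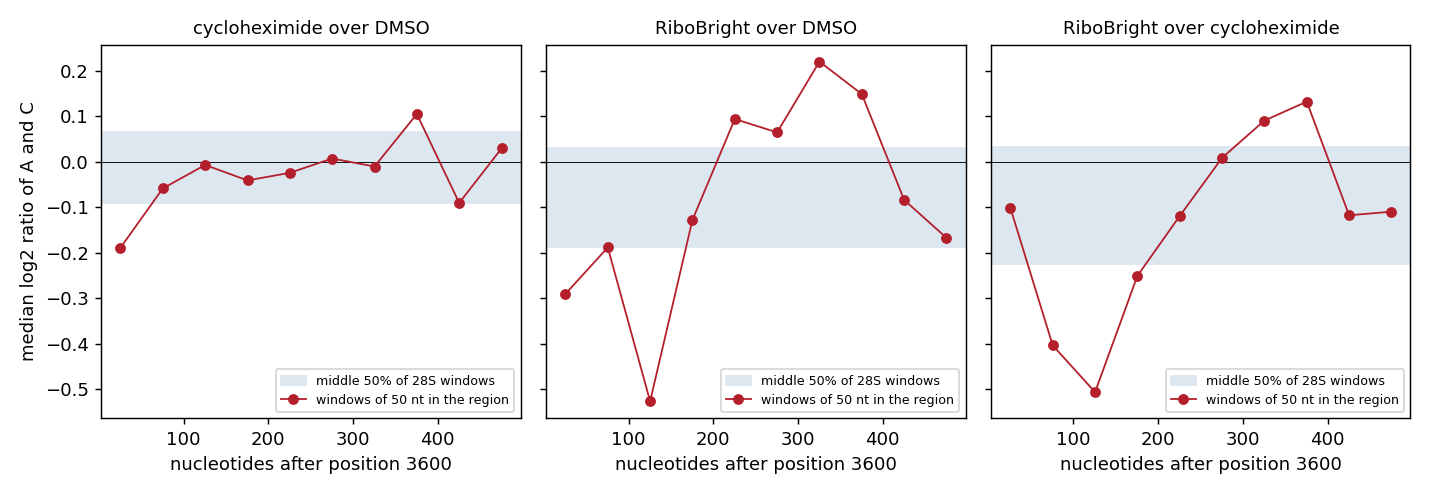
Median log2 ratio of the A and C in each 50-nt window (points, at the window's centre in nucleotides after position 3600) for the 3 pairs of libraries, with the middle 50% of all 28S windows as a shaded band. The windows of cycloheximide over DMSO stay between -0.19 and 0.11, while those of RiboBright over DMSO run from -0.53 to 0.22.

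Signal differed with the base that follows a member. Members followed by G had a median DMSO signal of 0.1465 and 21 of 70 reached the floor (30%), whereas those followed by another base had 0.079 and 23 of 177 (13%). The same held outside the region, with 35.4% and 20.5%. Among the cytidines, those preceded by G had a median of 0.104 with 12 of 38 at the floor, and those preceded by another C had 0.034 with 4 of 43. Neighbouring members share sequence and structure, so these shares are descriptions without a test.

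Pairing was also compared, in a computed model. In the minimum free energy fold of the 500 nt alone, 320 nt were paired. The 140 paired members had a median DMSO signal of 0.08, and the 107 unpaired ones 0.11. The 2 groups differ in base, with 93 C among the paired and 71 A among the unpaired, and within each base the medians were close: 0.116 for paired and 0.115 for unpaired A, and 0.065 and 0.0635 for C. At or above the floor were 26 paired members (18.6%) and 18 unpaired ones (16.8%), so the share of reactive members was not higher in the unpaired group. Of the 10 highest members, 5 were unpaired in the model. Extending the fold by 100 nt on each side kept the state of 222 of the 247 members, and the medians were then 0.116 and 0.1145 for A and 0.06 and 0.085 for C. The model has no proteins, no tertiary contacts and no partners outside the window.

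Known methylation sites lay within the range of the other members. A 2′-O-methyl group sits on the ribose and does not block the pairing face. From background knowledge 16 modified A and C were listed for this region, of which 14 had the expected base at that number and were used. The 13 sites of 2′-O-methylation had a median of 0.114 in DMSO, 0.101 in cycloheximide and 0.149 with RiboBright. The 233 members that are not among the 14 had 0.089, 0.095 and 0.085. Only A3760 and A3830 reached the floor in DMSO, and A3830 had 0.473, 0.511 and 0.592. The others were C3701, A3718, A3724, A3785, C3808, A3825, C3841, A3867, C3869, C3887 and C4054. None of the 13 was called. C3782, a site of 5-methylcytidine, had 0.045 in DMSO, 0.047 in cycloheximide and 0.017 with RiboBright.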

How the data were processed

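Mutation signal of 28S rRNA was analysed in 3 libraries of HEK293 cells, treated with DMSO, cycloheximide or RiboBright. Per the labels' protocols, TRIzol-extracted RNA was copied by TGIRT-III with random primers. The submitters' processing notes name cutadapt, Bowtie2 and hg38. The mutation counter, the normalization and any coverage minimum are not given in the sources. The values deposited by the authors are a signal for each A or C, never below 0. Their table of the series held the same values as the separate files of the libraries.

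The members and lists were chosen with earlier results of these data known. Positions named are every called member, the 10 highest in DMSO, the 5 A and 5 C with the largest scaled difference in each comparison, helix 69, the exit tunnel and L1 stalk equivalents, known modified sites and extreme windows. Neighbours and other members were named after their values were seen. Medians, scaling factors and background shares were computed over all A and C of 28S rRNA with Python 3.11.15, NumPy 2.4.6 and pandas 2.3.3, and the fold with RNAfold 2.7.2. The calling code was tested on simulated data. Alternatives covered scaling, pseudocount, floor, size of change, zeros, summary and limits of stretches.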

Additional observations from a re-analysis of the deposited data

How the results depend on the processing

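The count of called members depended on the floor and the size of change, while scaling, pseudocount and leaving out zeros kept it between 3 and 5 for both comparisons with RiboBright and at 0 for cycloheximide over DMSO. With the floor at the DMSO median the counts were 2 for cycloheximide over DMSO, 19 for RiboBright over DMSO and 13 for RiboBright over cycloheximide. Without a floor they were 8, 58 and 47. At 1.5-fold they were 2, 8 and 12. With the floor at the 90th percentile both comparisons with RiboBright kept 1 call, and at 3-fold both had 0. For the fold and floor settings fewer or more positions meet the rule by construction. The sign of the median over members turned for cycloheximide over DMSO without scaling (0.05), with scaling by the 90th percentile (0.06) and as a mean (0.01). It turned for RiboBright over DMSO without scaling (0.02), with zeros left out (0.01) and without the neighbours of zeros (0.03). It did not turn for RiboBright over cycloheximide, where it ran from -0.22 to -0.04. No paired analysis was possible because each treatment has 1 library. Depth is not given, so low values and zeros carry no counting error.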
